A study of Mus musculus with 4 samples.

Results

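The NF-κB subunits, regulators and targets are 42 of the 32285 genes counted in each library. They were chosen as a named module: the Rel proteins Nfkb1, Nfkb2, Rel and Rela, the inhibitors that hold them, the kinases, adaptors and ubiquitin enzymes above them, and genes that the pathway is known to switch on. NF-κB is a family of transcription factors that inhibitor proteins of the IκB class keep in the cytoplasm until a receptor for bacterial products, interleukin 1, TNF or antigen activates the IκB kinase. The released factors switch on inflammatory and survival genes together with their own brakes, among them Nfkbia, which encodes IκBα, and Tnfaip3, which encodes the deubiquitinase A20. miR-146a is itself induced by NF-κB and represses upstream adaptors, so its loss is studied as the loss of another brake.

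Immune cells (CD45+) were sorted from the livers of female C57BL/6 mice and measured by droplet RNA sequencing from transcript 5′ ends, which counts each transcript as 1 UMI whatever its length. There were 4 groups with 1 library each. The sample labels do not say how many mice each library held. The young wild-type mice were untreated and about 8 weeks old. The treated wild-type, miR-146a-/- and miR-146a-/- Ccl5-/- mice had received diethylnitrosamine, a liver carcinogen, at 25 mg/kg on day 14, were weaned on day 21 onto a choline-deficient diet with 60% fat, and were 36 weeks old. In this order, which all lists of 4 values below follow, the libraries held 10985, 9120, 8393 and 10623 cells and 90756272, 103165826, 88706063 and 103147246 UMIs. After limits on features and mitochondrial share, 10283, 8329, 7824 and 9850 cells were kept, with medians of 6782, 8210, 7910 and 7558 UMIs. Each library stands alone, so no difference has a replicate check, and the intervals given cover counting error only.

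Ccl5, the deleted gene that the counts can show, stood at 6174, 12544, 12496 and 65.4 CPM (UMIs scaled to a common library size) over all kept cells. The miR-146a-/- Ccl5-/- library was thus the low one. miR-146a has no row in the counts, so its loss could not be checked. Between 109 and 150 cell barcodes were shared by each pair of libraries, at most 1.64% of the first library's cells.

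Cells were sorted into classes by a few marker transcripts that are not members. Of 63 other marker genes, 51 were highest in the class they mark, but in the cDC2 class (gated on Cd209a, Clec10a and Mgl2) this held for 0 of 4, and in the ILC1 class (gated on Itga1 and Cxcr6) for 1 of 4. These are therefore called cDC2-gate and ILC1-gate cells. Cells with transcripts of more than 1 lineage were left out: 767, 1491, 1077 and 1254 cells, or 7.46%, 17.9%, 13.8% and 12.7% of the kept cells. They were most frequent in the treated wild-type library, and most of them there (1168) joined T-cell and myeloid transcripts. The gates for classical monocytes and plasmacytoid dendritic cells (pDC) found fewer than 50 cells in most libraries, and wider gates for both were added after the data had been seen. Over all kept cells, 6 hepatocyte genes summed to 30.7, 25.3, 14.4 and 18.6 CPM. The sums were 251, 134, 365 and 246 CPM for 4 erythroid genes and 62.4, 49.5, 75.4 and 94.2 CPM for 4 endothelial genes. The erythroid sum was lowest in treated wild-type and highest in miR-146a-/- mice. Whether transcripts of such cells add to the members' levels was not tested.

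The mature strand of miR-146a, whose loss defines the comparison of miR-146a-/- with treated wild-type mice, lies at chr11:43374435-43374456 on the minus strand of GRCm38.p6. Its seed, bases 2 to 8, is in capitals.

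mmu-miR-146a-5p: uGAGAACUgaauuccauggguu

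Matches to this seed were looked for in the longest annotated 3′ UTR of each gene, since members with a match could be held down by the miRNA directly. A match was pairing with bases 2 to 8, pairing with bases 2 to 7 followed by an A, or both (the 8-base form). Of the 42 members, 8 had at least 1 match (19%), beside 3802 of 21112 genes (18%). The 8-base form was present in 3 members (7.14%) and in 4.03% of all genes. Rel had 6 matches, Sod2 had 2, and Cd83, Chuk, Cyld, Ikbkg, Map3k8 and Nfkbib had 1 each. The matches of Cyld, Ikbkg, Map3k8 and Nfkbib, and some of those of Rel, lacked the pairing with base 8. A match is a description of the sequence and no evidence of repression. The 8-base matches lie at chr11:23737002-23737009 (Rel, minus strand), chr13:43802931-43802938 (Cd83, plus strand) and chr19:44073488-44073495 (Chuk, minus strand), in capitals below.

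Rel: attatttttttttaAGTTCTCAaga

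Cd83: ccacgacaggaggaAGTTCTCAgat

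Chuk: tctaaaatctgaacAGTTCTCAttc

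The κB consensus motif was looked for on both strands of RefSeq promoters of GRCm38.p6, from 250 bases before to 50 bases after each start site. It was found in 16 of the 36 members with a listed promoter (44.4%), beside 1388 of 27025 genes (5.14%) and 4.51% of all 32851 promoters. The members were chosen partly as known targets, so this share describes the list. The promoters of Nfkbia (chr12:55492598-55492897), Tnfaip3 (chr10:19015361-19015660), Rel (chr11:23770920-23771219) and Tnip1 (chr11:54962891-54963190) are given as examples of members named in the comparison of miR-146a-/- with treated wild-type mice. All 4 are on the minus strand, written in the direction of transcription, with matches in capitals. The match of Nfkbia begins at position -29 from the start site, those of Tnfaip3 at -125 and -12, and the first of the overlapping matches of Rel and Tnip1 at -92 and -58.

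Nfkbia promoter: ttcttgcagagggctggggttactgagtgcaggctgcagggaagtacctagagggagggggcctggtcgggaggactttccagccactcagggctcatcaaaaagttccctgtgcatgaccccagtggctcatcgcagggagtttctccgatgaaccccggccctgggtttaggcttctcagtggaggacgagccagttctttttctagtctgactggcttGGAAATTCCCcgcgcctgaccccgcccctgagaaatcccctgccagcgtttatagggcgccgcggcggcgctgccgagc

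Tnfaip3 promoter: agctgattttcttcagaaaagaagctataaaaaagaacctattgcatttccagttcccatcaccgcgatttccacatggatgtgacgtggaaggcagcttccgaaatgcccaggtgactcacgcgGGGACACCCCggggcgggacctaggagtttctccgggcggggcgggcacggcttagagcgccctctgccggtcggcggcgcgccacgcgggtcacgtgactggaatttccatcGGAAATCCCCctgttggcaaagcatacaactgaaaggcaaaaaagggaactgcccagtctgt

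Rel promoter: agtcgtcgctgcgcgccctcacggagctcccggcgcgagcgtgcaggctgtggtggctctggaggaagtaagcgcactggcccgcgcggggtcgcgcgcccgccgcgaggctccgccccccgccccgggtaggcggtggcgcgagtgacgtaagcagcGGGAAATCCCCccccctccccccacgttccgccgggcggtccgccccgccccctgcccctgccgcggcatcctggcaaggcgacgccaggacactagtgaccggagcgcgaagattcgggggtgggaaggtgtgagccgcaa

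Tnip1 promoter: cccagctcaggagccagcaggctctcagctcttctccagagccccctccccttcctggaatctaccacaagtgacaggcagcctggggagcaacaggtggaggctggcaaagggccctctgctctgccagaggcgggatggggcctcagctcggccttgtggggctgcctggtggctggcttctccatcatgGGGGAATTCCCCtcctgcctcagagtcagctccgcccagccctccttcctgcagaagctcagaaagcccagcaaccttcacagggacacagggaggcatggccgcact

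Over the 4 libraries pooled, Nfkbia was the most abundant member, with 508 CPM, followed by Tnfaip3 (249.7 CPM), Bcl2a1b (227 CPM), Nfkb1 (203 CPM), Cd83 (164 CPM) and Traf1 (159.7 CPM). This order is of pooled counts, and levels such as those of Nfkbia and Tnfaip3 differed between libraries, as given below. Among the Rel subunits, Nfkb1 led Rel (139 CPM), Rela (80.7 CPM) and Nfkb2 (69.9 CPM). Among the other roles the leaders were Nfkbiz (151 CPM) for the nuclear IκB proteins, Ikbkb (105 CPM) for the kinases, Malt1 (139 CPM) for the antigen-receptor adaptors and Il1b (128 CPM) for cytokine and inflammasome targets. At the other end, Il6 (183 UMIs) and Il1a (258 UMIs) were too rare to be compared in any class.

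The members were not spread evenly over the classes. Over the pooled libraries, mature dendritic cells, few as they were (75 cells in all), had the highest summed level, 12748 CPM (95% interval 12546 to 12952), and 20 of the 42 members were highest in them. These included the brake Nfkbia, the subunits Nfkb2, Rel and Rela, the cIAP genes Birc2 and Birc3, and Cd83, which reached 1427 CPM there against 835 CPM in B cells. Neutrophils (104 cells) came next with 7875 CPM and were highest for 11 members, led by Il1b with 2953 CPM, 4.84 times the 609.8 CPM of cDC2-gate cells. The pooled order did not hold in each library. Neutrophils, at 19 to 34 cells per library, stood above mature dendritic cells in the young (26411 and 16871 CPM) and treated wild-type libraries (13385 and 12953 CPM). In miR-146a-/- mice they had 4167 CPM, below mature dendritic cells (12977 CPM), patrolling monocytes, cDC2-gate cells, C1q macrophages (5921 CPM), regulatory T cells (4905 CPM) and cDC1 (4425 CPM). The neutrophils' median UMIs per cell were 3604, 2354, 8550 and 5214.5. Whether the gate held like cells in each library was not tested. In the pooled order patrolling monocytes (5938 CPM) and cDC2-gate cells (5736 CPM) followed, and pDC of the wider gate were lowest (2143 CPM). PD-1- and PD-1+ CD8 T cells came just above these pDC, with 2915 and 2920 CPM and overlapping intervals. Lymphocytes led for a few regulators in the pooled counts. Tnfaip3 was highest in NK cells (444 CPM, against 381 CPM in regulatory T cells), Malt1 in B cells (236 CPM) and Cyld in conventional CD4 T cells (157 CPM). Nfkb1 peaked in cDC2-gate cells (560 CPM), Tnip1 and Ikbkb in patrolling monocytes (181 and 223 CPM) and Chuk in cDC1 (68.4 CPM). Sod2 was highest in classical monocytes of the wider gate (286 CPM), Tnip3 in cDC2-gate cells (104 CPM) and Bcl2a1a in C1q macrophages (159 CPM). For Bcl2a1a this held in 1 library, and mature dendritic cells had 156 CPM. Il6 was too rare to be placed, with 2.81 CPM in C1q macrophages and 2.52 CPM in mature dendritic cells. Several of these orders were close: Cyld stood at 154 CPM in regulatory T cells, Chuk at 66 CPM in pDC of the wider gate and Nfkbia at 1267 CPM in mature dendritic cells and 1264 CPM in neutrophils. Map3k8 had 119 CPM in mature dendritic cells and 117 CPM in C1q macrophages. How many of all genes were highest in these small classes was not counted. The counts of 20 and 11 members therefore have no share to be set beside. The pooled values also weigh libraries by their cells, which differ by class. Only 20 of the 42 members were highest in the same class in all 4 libraries. Tnfaip3 was highest in NK cells in both wild-type libraries and in regulatory T cells in both miR-146a-/- libraries (326 and 345 CPM, beside 203 and 240 CPM in NK cells). Tnip1 was highest in regulatory T cells in the young library (119 CPM, beside 91.7 CPM in patrolling monocytes).

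**Figure D1:**
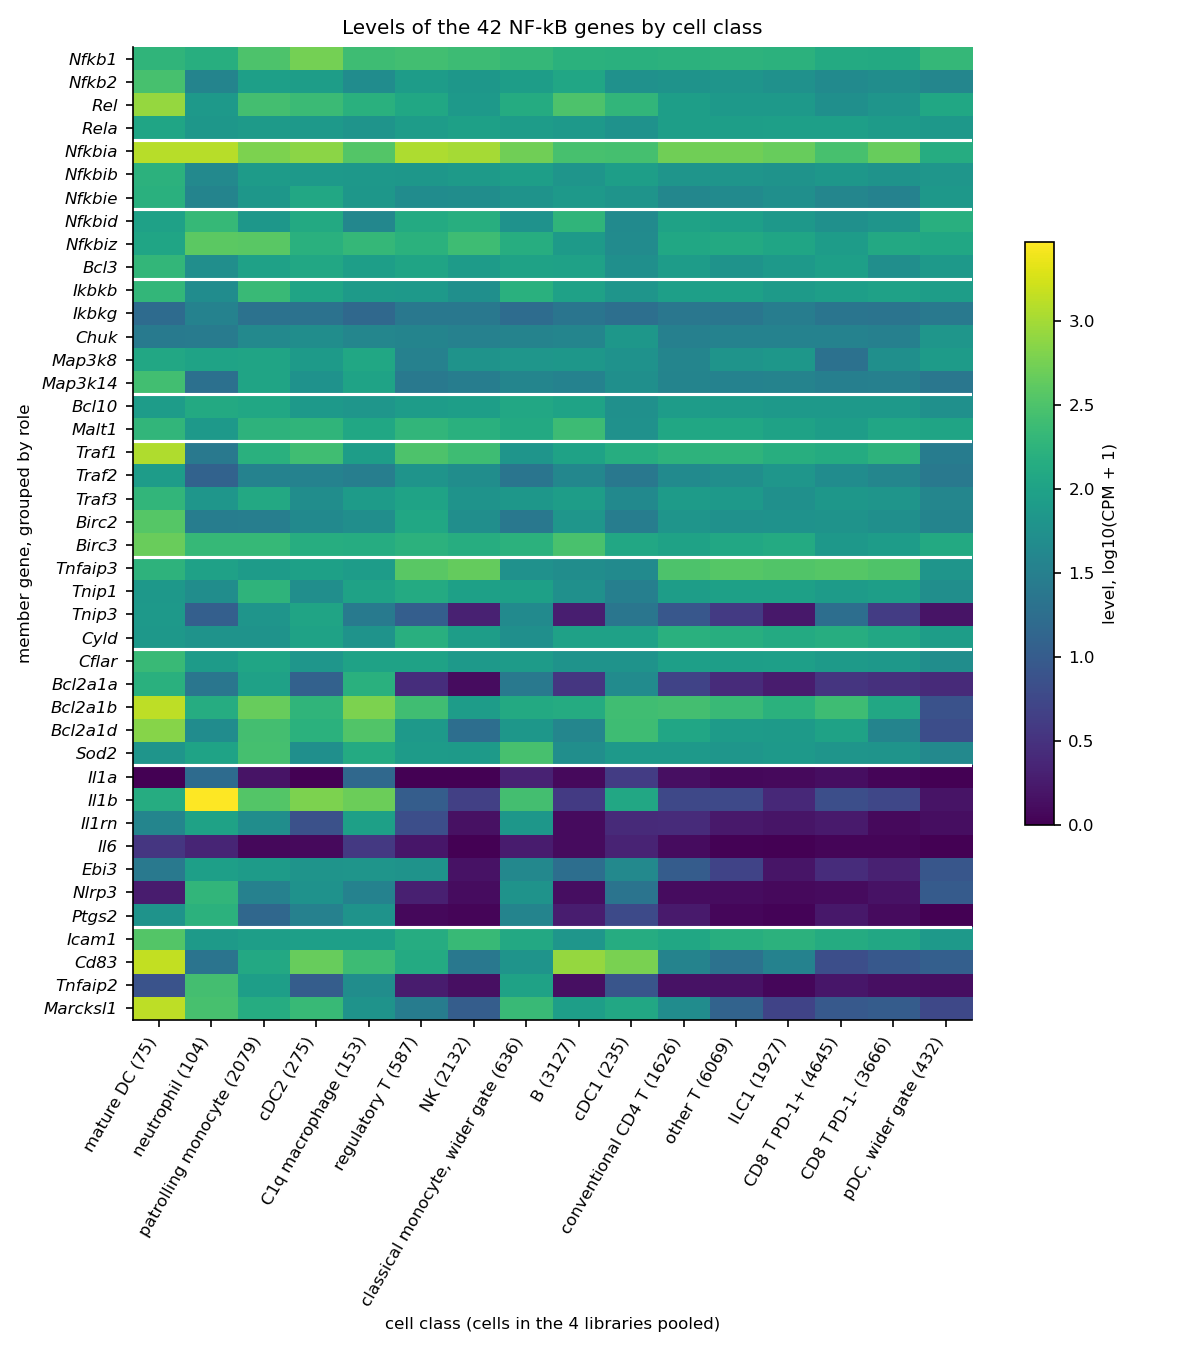
Pooled level of each of the 42 members (one row each, grouped by role) in each cell class, on a log scale of CPM. Mature dendritic cells and neutrophils hold the highest value of 20 and 11 members. The same count over all genes was not made.

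The summed level of the members was compared between libraries within each class that had at least 50 cells. In NK cells it was 4730.4, 5387, 3086 and 3214 CPM, so the untreated and treated wild-type libraries were high and both miR-146a-/- libraries low. Both wild-type libraries were also above both miR-146a-/- libraries in B cells (4392, 4562, 3666 and 3633 CPM), ILC1-gate cells (3135, 3849.6, 2851 and 2946 CPM), PD-1- CD8 T cells (2999, 3381, 2557 and 2636 CPM), PD-1+ CD8 T cells (2982, 3318, 2676 and 2722 CPM), other T cells (3399, 4182, 3102 and 3241 CPM), pDC of the wider gate (2341, 2395, 1923 and 2046 CPM) and patrolling monocytes (6893, 7513, 5844 and 5689 CPM). With gates on thinned cells this did not hold in patrolling monocytes, where the young library had 5507 CPM and the miR-146a-/- Ccl5-/- library 5552 CPM, and with cells of more than 1 lineage kept it did not in other T cells (3535 and 3542 CPM). Conventional CD4 T cells broke the order, with 3269, 4105, 3455 and 3664 CPM, the young library being below miR-146a-/- Ccl5-/- in every setting. So did regulatory T cells, where the young library had 4613 CPM and the miR-146a-/- libraries 4905 and 4864 CPM, but with cells of more than 1 lineage kept these were 4958, 4812 and 4947 CPM. In cDC1 the libraries ordered differently, with 3499, 4264, 4425 and 2735 CPM. The miR-146a-/- Ccl5-/- library was lowest and the young library next, but on thinned cells these 2 had 2978 and 2908 CPM. Treated wild-type was above miR-146a-/- with gate minimums doubled (3679 and 3524 CPM) and with cells of more than 1 lineage kept (4109 and 3665 CPM). In cDC2-gate cells the treated libraries had 5679, 6019 and 5485 CPM, but 4838, 3656 and 3916 CPM with cells of more than 1 lineage kept, where miR-146a-/- was lowest and no longer highest. The spread within a library was larger than that between libraries: in the treated wild-type library, patrolling monocytes stood at 7513 CPM and pDC of the wider gate at 2395 CPM.

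**Figure D2:**
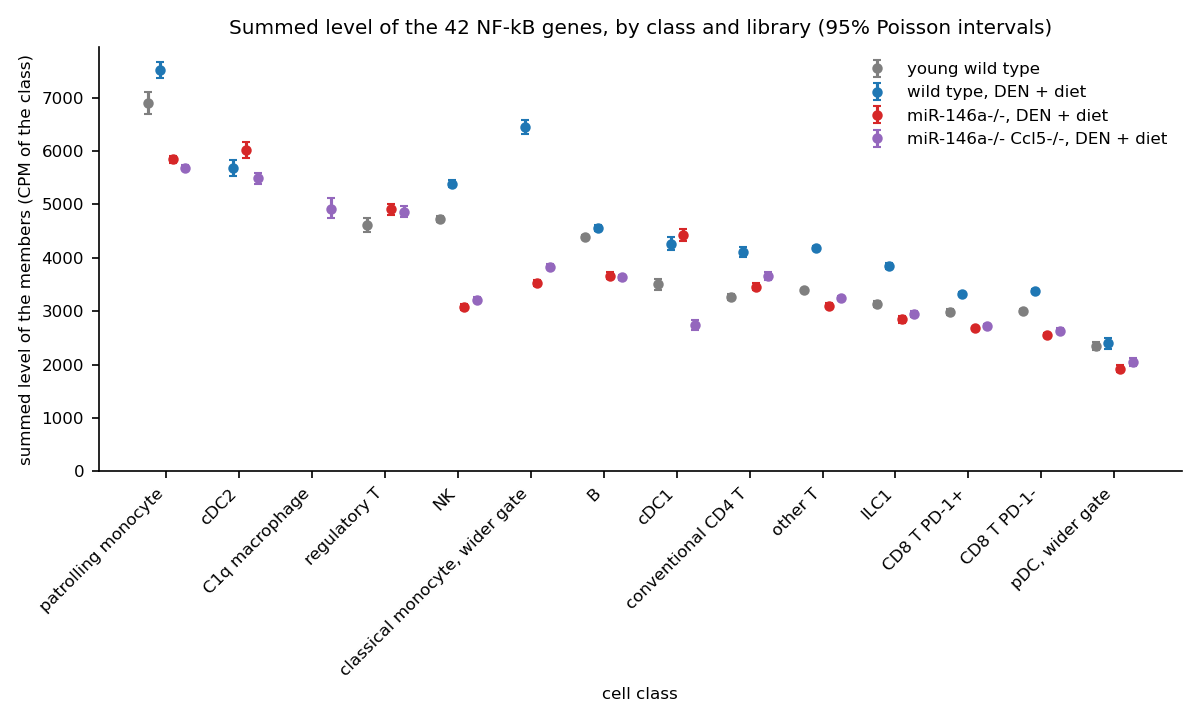
Summed level of the 42 members in CPM, with exact 95% Poisson intervals, for each class and library with at least 50 cells. NK cells fall from 5387 CPM in treated wild-type to 3086 CPM in miR-146a-/- mice, and cDC1 stand at 4425 CPM in miR-146a-/- and 2735 CPM in miR-146a-/- Ccl5-/- mice.

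Treated wild-type mice were compared with young wild-type mice, which differ in age, carcinogen and diet together. In all 9 classes with enough cells outside the wider gates the members' median log2 ratio was above 0, from 0.049 in PD-1+ CD8 T cells to 0.24 in ILC1-gate cells, and in pDC of the wider gate it was 0.13. The interval of the median over members, which describes their spread and no error between mice, lay above 0 in 6 of the 9 classes. In PD-1+ CD8 T cells the sign was not firm, with medians of -0.019 on thinned cells and -0.030 with stricter gates. Over the 9 classes there were 42 member values higher by more than 1.5-fold and 4 lower, out of 288, beside 4.04% and 3.94% of 56069 values of all tested genes. These values came from 20 and 3 members.

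Among the Rel subunits, Nfkb2 was higher in 5 classes. In ILC1-gate cells it stood at 26.6, 72.2, 57.4 and 57 CPM, so the young library was the low one (log2 ratio of treated over young 1.44, interval 1.09 to 1.81). In NK cells it had 50.5, 97.4, 61.8 and 65.5 CPM (0.95, 0.73 to 1.17), and there the treated wild-type library stood alone as high. Rel was higher in 1 class, conventional CD4 T cells, with 74.9, 147, 71.5 and 88.4 CPM (0.98). Cd74, a B-cell marker here that was highest in cDC2-gate cells, stood at 277, 1450, 405 and 631 CPM in that class and was also high in treated wild-type alone. The other 4 B-cell markers, all detected and mostly Ighm, summed to 209, 112, 68.8 and 91.3 CPM, with the young library highest. Whether transcripts of other cells add to Rel, Cd83 and Marcksl1 there was not tested. Nfkb1 did not pass the fold in any of the 9 classes, with log2 ratios from -0.23 to 0.47.

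Of the inhibitors, Bcl3 was higher in 6 classes and above 0 in all 9. In PD-1+ CD8 T cells it had 50.3, 108, 99.9 and 68.5 CPM (log2 ratio 1.10, interval 0.85 to 1.36), so all 3 treated libraries were above the young one. Nfkbia passed the fold in other T cells alone, with 482, 783, 395 and 484 CPM (0.70, 0.66 to 0.74), where the treated wild-type library was the high one. In ILC1-gate cells its ratio of 0.58 fell just short. Tnfaip3 passed the fold in patrolling monocytes, with 72.7, 157, 74.1 and 71.7 CPM (1.10, 0.65 to 1.60). There too only the treated wild-type library was high.

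Cd83 in ILC1-gate cells stood at 4.92, 62.7, 15.2 and 32.2 CPM (log2 ratio 3.63, interval 2.93 to 4.53) and in NK cells at 15.1, 42.5, 12.7 and 22.3 CPM (1.48, 1.11 to 1.88). It was thus lowest in young wild-type and miR-146a-/- mice and highest in treated wild-type mice. The 5 B-cell markers summed to 320, 679, 766 and 835 CPM in ILC1-gate cells and to 355, 355, 356 and 499 CPM in NK cells. Without Cd74 the sums were 173, 176, 153 and 178 CPM, and 77.9, 83.8, 83.2 and 87.8 CPM, mostly Ighm with 3 or 4 of 4 genes detected, and differed little between libraries. In B cells, the class with the most Cd83 among these lymphocytes, the young and treated wild-type libraries had 1026 and 965 CPM and did not differ past the fold. In cDC1, Tnip3 rose from 2.18 to 46.3 CPM (4.20, 2.78 to 6.73), Marcksl1 from 56.6 to 185 CPM (1.70) and Bcl2a1b from 144 to 433 CPM (1.59). The markers of mature dendritic cells other than Ccl5, which are given in full with the last comparison, rose in cDC1 too, from 12.3 to 374 CPM. Whether the rises lie in cDC1 themselves or in how many had matured was not tested. Ebi3 was the member that fell there most, from 62.5 to 22.3 CPM (-1.47), and it fell also in patrolling monocytes (-1.06).

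Class by class, the calls have to be read beside the share of all tested genes past the same fold. Of 29 members tested in PD-1+ CD8 T cells, 3 were higher (Bcl3, Nfkbib and Bcl2a1d) and 0 lower, beside 5.49% and 5% of 6343 genes. PD-1- CD8 T cells had 1 higher (Bcl3) and 0 lower of 30, beside 0.949% and 0.724%. Conventional CD4 T cells had 6 higher (Marcksl1, Cd83, Rel, Bcl3, Nfkb2 and Traf1) and 0 lower of 32, beside 2.91% and 2.36%. The other lymphocyte classes also had more members higher than lower. Other T cells had 4 higher (Bcl3, Nfkbia, Nfkb2 and Traf1) and 0 lower of 30, beside 2.74% and 1.97%. NK cells had 4 higher (Cd83, Nfkb2, Nfkbie and Traf1) and 1 lower (Bcl2a1b) of 30, beside 3.03% and 1.75%. In ILC1-gate cells 5 were higher (Cd83, Nfkb2, Bcl3, Icam1 and Nfkbie) and 0 lower of 31, beside 2.87% and 3.39%. In B cells 2 were higher (Marcksl1 and Traf1) and 0 lower of 32, beside 2.49% and 1.57%. In cDC1 9 were higher (the largest Tnip3, Marcksl1, Bcl2a1b, Bcl3 and Nfkb2) and 2 lower (Ebi3 and Chuk) of 36, beside 7.84% and 9.15%. In patrolling monocytes 8 were higher (the largest Marcksl1, Tnfaip3, Sod2, Traf2 and Il1rn) and 1 lower (Ebi3) of 38, beside 8.69% and 10.4%. In pDC of the wider gate 1 of 28 was higher (Ikbkb) and 0 lower, beside 3.32% and 4.33%.

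The 14 dissociation and stress genes, all detected in every library, summed to 10991, 9050, 4615 and 5076 CPM over all kept cells, with Junb the most abundant in each. In treated over young wild-type mice their sum was lower in 8 of the 9 classes, with log2 ratios from -0.52 to 0.02, against the direction of the members' medians. A list of 43 further pathway genes, all found, was counted in the same way, and the shares of all tested genes are those given above for each class. In PD-1+ CD8 T cells 8 of 32 tested were higher and 0 lower, led by Tnfrsf4, Ier3, Ccl3, Ccl4 and Tnfrsf9. In patrolling monocytes 8 of 34 were higher, led by Cxcl2, Ccl4, Ikbke and Cd40, and 1 lower. ILC1-gate cells had 5 higher and 2 lower (Traf5 and Myd88) of 31, cDC1 6 higher and 1 lower (Map3k7) of 31, and B cells 0 either way of 27.

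The comparison of miR-146a-/- with wild-type mice, both treated, asks what the loss of miR-146a alters. It shares the treated wild-type library with the comparison above, so a value that is high in that library alone enters both. The members' median log2 ratio was below 0 in 8 of the 10 classes outside the wider gates, and ranged from -0.36 in NK cells to 0.08 in cDC2-gate cells. The interval of the median over members lay below 0 in 6 of the 10 classes and above 0 in 0. For conventional CD4 T cells, with a median of -0.01, the median was 0.01 with TMM scaling factors. In the classes with positive medians, cDC1 (0.07) and cDC2-gate cells, it was -0.04 and -0.25 once cells of more than 1 lineage were kept. Of 324 member values 11 were higher by more than 1.5-fold and 53 lower, beside 3.83% and 5.34% of 62093 values of all tested genes.

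The brakes Tnfaip3 and Nfkbia were lower almost throughout. In NK cells Nfkbia stood at 1332, 1469, 457 and 562 CPM and Tnfaip3 at 625, 618, 203 and 240 CPM. Both wild-type libraries were thus high and both miR-146a-/- libraries low, young mice included. The log2 ratios of miR-146a-/- over treated wild-type were -1.68 (interval -1.76 to -1.61) for Nfkbia and -1.60 (-1.72 to -1.49) for Tnfaip3. Over the 10 classes, Tnfaip3 was below 0 in 10 and past the fold in 8, and Nfkbia below 0 in 9 and past the fold in 4. In PD-1+ CD8 T cells Tnfaip3 had 383, 527, 237 and 279 CPM (-1.15, -1.22 to -1.09) and Nfkbia 354, 343, 244 and 266 CPM, which did not pass the fold. The exception for Nfkbia was cDC1, with 208, 278, 389 and 271 CPM (0.48).

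Rel fell in the same libraries. It was below 0 in all 10 classes and past the fold in 5. In B cells, the lymphocytes with the most Rel, it stood at 400.2, 361, 227 and 225 CPM (log2 ratio -0.67, interval -0.78 to -0.56), and in conventional CD4 T cells at 74.9, 147, 71.5 and 88.4 CPM (-1.04, -1.30 to -0.79). In B cells both wild-type libraries were high, whereas in conventional CD4 T cells only treated wild-type was, as it was there for Cd74 but not for the other B-cell markers. Nfkb1 passed the fold in 0 of 10 classes, with ratios from -0.31 in NK cells to 0.24 in cDC1. Rela also passed it in 0 of 10 (named after its values were seen).

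Tnip1, a partner of A20, went the other way. In NK cells it had 54.7, 66.8, 138 and 133 CPM (log2 ratio 1.04, interval 0.84 to 1.25) and in patrolling monocytes 91.7, 119, 222 and 172 CPM (0.90, 0.67 to 1.15). Both miR-146a-/- libraries were high in each class. Its ratio was above 0 in all 10 classes and past the fold in 4, the others being cDC2-gate cells (0.69) and cDC1 (0.59, where the interval of -0.10 to 1.32 includes 0). In the wider gates it was below 0, with -0.18 in classical monocytes and -0.23 in pDC. Tnip1 lies at chr11:54910785-54962917, on the chromosome that carries Mir146 (from 43374397) and Ccl5 (from 83525778). Whether the position bears on its level was not tested. Cflar, named after its values were seen, was above 0 in all 10 classes and past the fold in 0, and in classical monocytes of the wider gate it had -0.53. The 10 classes come from the same libraries and are not replicates of each other. How many of all tested genes kept the same sign in all 10 was not counted.

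**Figure D3:**
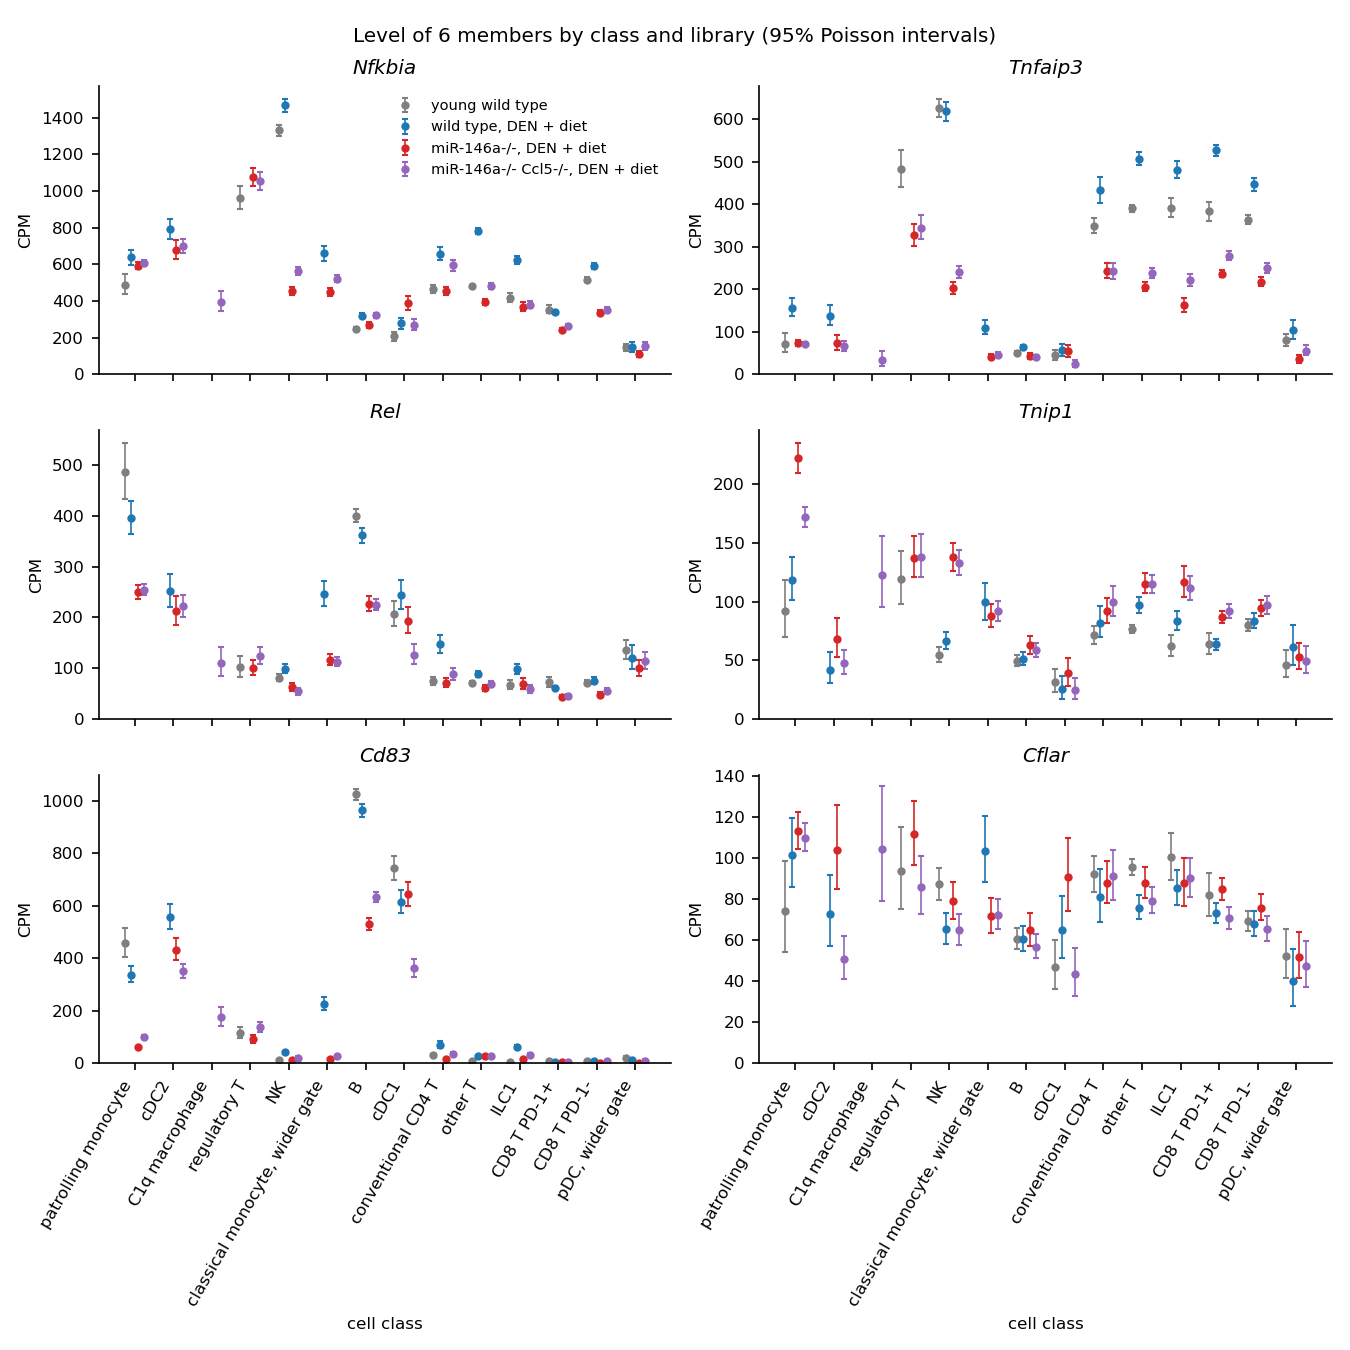
Level in CPM, with 95% Poisson intervals, of Nfkbia, Tnfaip3, Rel, Tnip1, Cd83 and Cflar in each library, by class. In NK cells Nfkbia drops from 1469 CPM in treated wild-type to 457 CPM in miR-146a-/- mice while Tnip1 climbs from 66.8 to 138 CPM.

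Nfkbiz in NK cells stood at 286, 373, 145 and 134 CPM (log2 ratio -1.36, interval -1.50 to -1.22) and Nfkbid there at 185, 215, 109 and 70.7 CPM (-0.97). In PD-1- CD8 T cells Map3k8, the kinase upstream of the MAP kinases, had 52.1, 71.8, 38.3 and 43.4 CPM (-0.91, -1.12 to -0.70). All 3 were highest in the treated wild-type library and lower in both miR-146a-/- libraries.

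Of the targets, Cd83 was past the fold downward in 5 of the 7 classes where it was tested. It stood at 458, 338, 60.9 and 102 CPM in patrolling monocytes (log2 ratio -2.47, interval -2.68 to -2.27) and at 1026, 965, 531 and 635 CPM in B cells (-0.86, -0.93 to -0.79). Both wild-type libraries were the high ones in both classes. Cd74, which is no member, stood at 12852, 13832, 3795 and 6404 CPM in patrolling monocytes and was high in the same libraries as Cd83. Whether the mix of cells inside this gate differed was not tested. Of 4 cytokine and inflammasome targets tested there, 3 were lower and 1 (Ebi3, 0.68) higher, beside 10.9% and 10.6% of all tested genes. Il1b had 874, 738, 274 and 297 CPM (-1.43, -1.55 to -1.32) and Il1rn 83.8, 148, 37.1 and 39.4 CPM (interval -2.28 to -1.71). Marcksl1 moved in both directions. It was lower in conventional CD4 T cells (39.2, 99, 32.9 and 43.6 CPM, -1.59) and B cells (-1.02) and higher in cDC2-gate cells (140.2, 381 and 199 CPM in the treated libraries, 1.44).

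**Figure D4:**
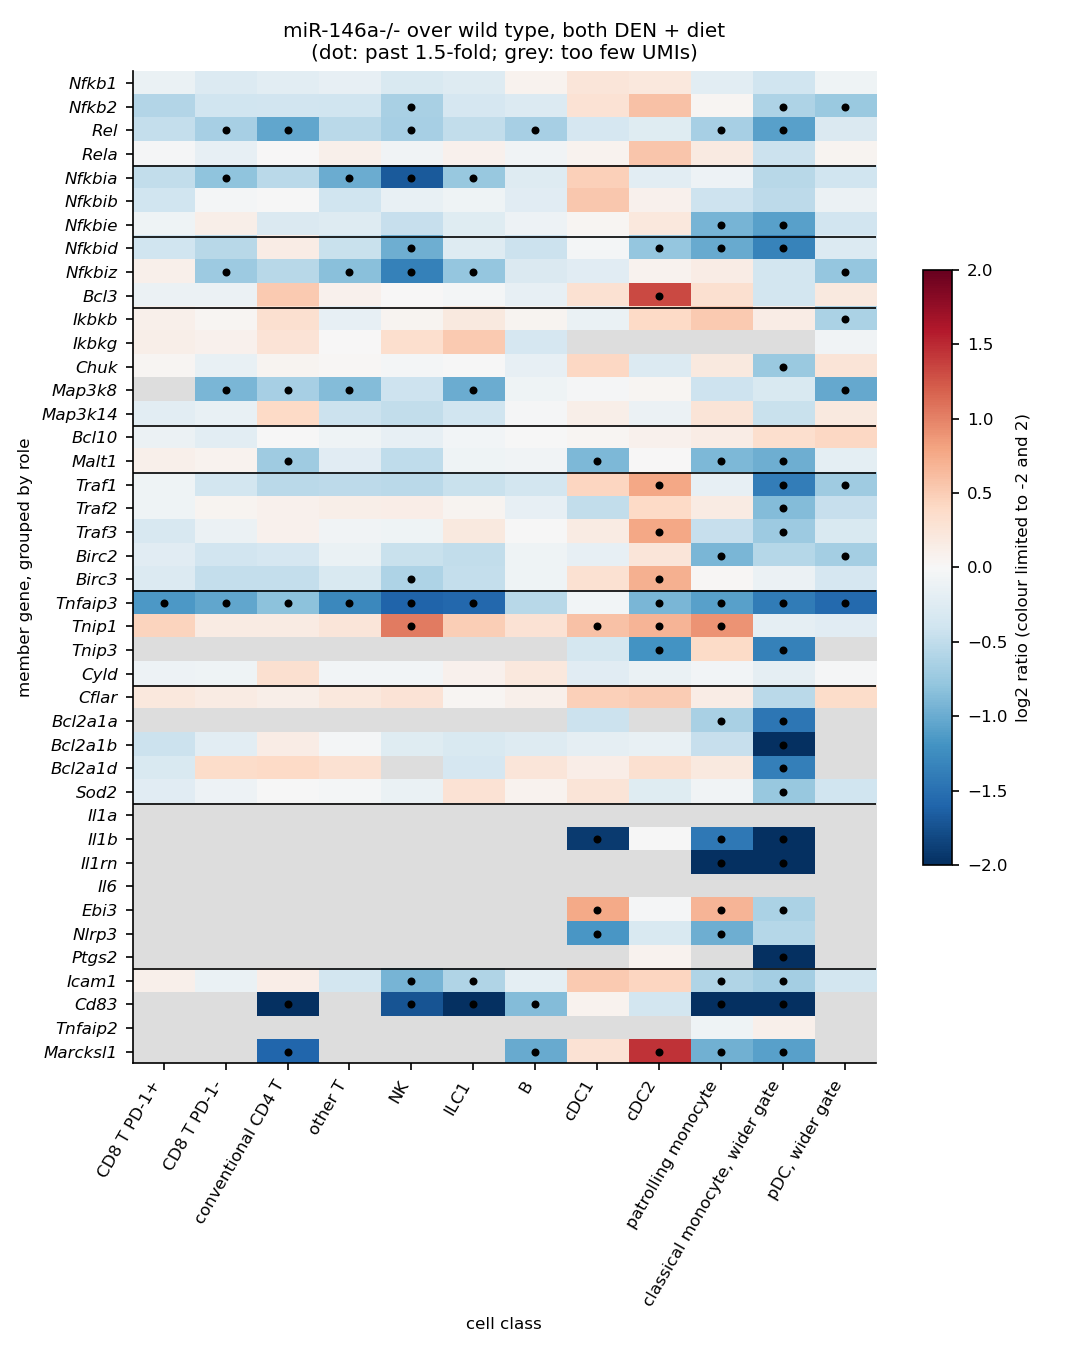
Log2 ratio of miR-146a-/- over treated wild-type mice as a colour for each member (grouped by role) and class, with dots past 1.5-fold and grey where UMIs were too few. Outside the wider gates, Tnfaip3 and Rel lie below 0 and Tnip1 and Cflar above 0 in 10 of 10 classes. The classes come from the same libraries and are not replicates, and Cflar was named after its values were seen. The share of all genes with the same sign in every class was not counted.

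Class by class, NK cells had 9 members lower (the largest Cd83, Nfkbia, Tnfaip3, Nfkbiz and Nfkbid) and 1 higher (Tnip1) of 30, beside 3.7% and 1.91% of 6295 genes. ILC1-gate cells had 6 lower (the largest Cd83, Tnfaip3, Map3k8, Nfkbiz and Nfkbia) and 0 higher of 31, beside 3.47% and 1.73%. In PD-1+ CD8 T cells 1 of 29 was lower (Tnfaip3) and 0 higher, beside 3.18% and 2.6%. PD-1- CD8 T cells held more of the calls. They had 5 lower (Tnfaip3, Map3k8, Nfkbia, Nfkbiz and Rel) and 0 higher of 30, beside 2.06% and 0.82%. Other T cells had 4 lower (Tnfaip3, Nfkbia, Map3k8 and Nfkbiz) and 0 higher of 30, beside 2.49% and 1.02%. In conventional CD4 T cells 6 were lower (the largest Cd83, Marcksl1, Rel, Tnfaip3 and Malt1) and 0 higher of 32, beside 5.64% and 3.79%. B cells had a shorter list with Rel in it. In them 3 were lower (Marcksl1, Cd83 and Rel) and 0 higher of 32, beside 4.62% and 2.53%. In cDC1 3 were lower (Il1b, Nlrp3 and Malt1) and 2 higher (Ebi3 and Tnip1) of 36, beside 11.2% and 6.21%. The remaining classes with enough cells were myeloid. Patrolling monocytes had 13 lower (the largest Cd83, Il1rn, Il1b, Tnfaip3 and Nfkbid) and 2 higher (Tnip1 and Ebi3) of 38, beside 10.9% and 10.6%. In cDC2-gate cells 6 were higher (the largest Marcksl1, Bcl3, Traf1, Traf3 and Birc3) and 3 lower (Tnip3, Tnfaip3 and Nfkbid) of 36, beside 8.08% and 7.14%. Of these rises, Traf1 (0.78) and Traf3 (0.77) turned to -0.14 and -0.25 when cells of more than 1 lineage were kept.

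The wider gate for classical monocytes showed the largest share of calls of any class. Of 39 members 22 were lower and 0 higher, beside 8.09% and 9.03% of 5794 genes, and the median log2 ratio was -0.67. Cd83 had 289, 228, 16.6 and 27 CPM (-3.77, -4.19 to -3.39), Il1b 468, 727, 162 and 194 CPM (-2.17, -2.31 to -2.02), and Il1rn, Bcl2a1b and Ptgs2 followed with -2.30, -2.21 and -2.13. Both wild-type libraries were high for these genes, though the young one held only 30 cells. Neutrophil marker transcripts differed between the libraries too: the 6 genes, 4 of them detected in the young library and 6 in the others, summed to 130, 153, 5298 and 4313 CPM, with Cxcr4 most abundant in the wild-type libraries and S100a9 in the others. In patrolling monocytes the same list summed to 207, 185, 2352 and 554 CPM. The wider gate for classical monocytes did not leave out cells that also fitted the neutrophil or mature dendritic cell gate. Whether the mix of cells inside it differed between libraries was not tested. In pDC of the wider gate 7 of 28 members were lower (the largest Tnfaip3, Map3k8, Nfkbiz, Nfkb2 and Traf1) and 0 higher, beside 4.38% and 5.7%.

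The dissociation and stress genes fell in the same comparison. Their sum was lower in miR-146a-/- than in treated wild-type mice in 10 of 10 classes outside the wider gates, with log2 ratios from -1.44 to -0.68. In NK cells it was 11995, 10671, 4314 and 4902 CPM, and 11 of 14 genes were past the fold downward. Both wild-type libraries were high and both miR-146a-/- libraries low. Handling of the cells during dissociation can raise these genes. Whether the members' lower levels come from the genotype, from handling or from the mix of cells was not tested. Among the immediate-early and stress response genes, Fos and Jun belong to this list.

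**Figure D5:**
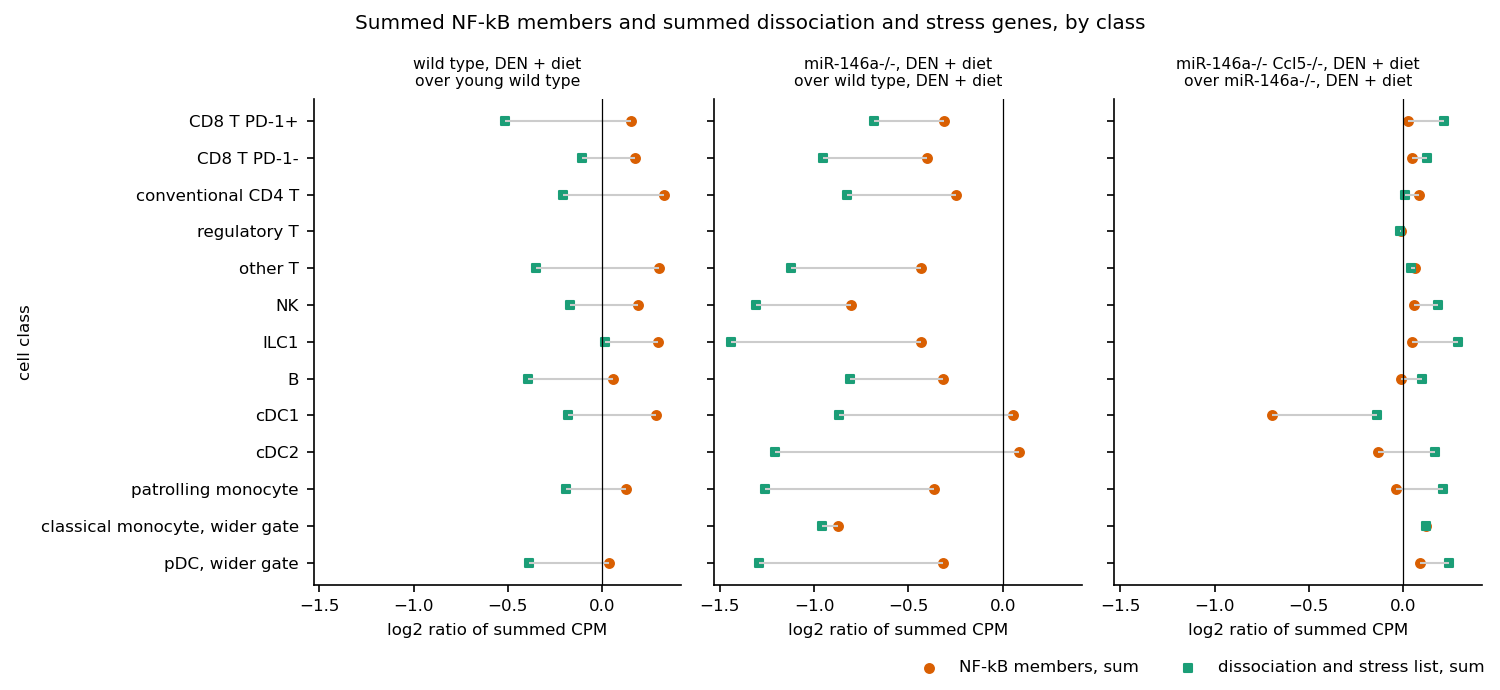
Log2 ratio of the summed members and of the summed dissociation and stress genes in each class, for the 3 comparisons. In miR-146a-/- over treated wild-type mice the stress genes are lower in every class shown, down to -1.44 in ILC1-gate cells.

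Of the further pathway genes, 0 were higher and 5 lower in NK cells, led by Gadd45b, Zfp36, Pim1, Zc3h12a and Relb, out of 31 tested, beside the shares of all genes given above. Patrolling monocytes had 3 higher (Irak3, Ikbke and Card9) and 11 lower of 34, led by the monocyte products Cxcl2, Ccl4 and Ccl3 with Zfp36 and Gadd45b. In conventional CD4 T cells 4 were higher (Ccl4, Ccl3, Ier3 and Tnfrsf4) and 2 lower (Zfp36 and Tnf) of 33. In cDC2-gate cells 4 were higher (Cd40, Relb, Myd88 and Map3k7) and 8 lower of 35, led by Ccl3, Tnf and Il1r2. Relb, lower in NK cells, thus rose there (log2 ratio 0.81, interval 0.40 to 1.24). The miR-146a target Irak1 and Traf6 were past the fold in 0 of the 10 classes, and Irak2 was higher in PD-1+ CD8 T cells and lower in patrolling monocytes.

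The comparison of miR-146a-/- Ccl5-/- with miR-146a-/- mice, both treated, asks what the loss of Ccl5 alters on that background, and it shares the miR-146a-/- library with the comparison before it. The members' median log2 ratio lay between -0.53 in cDC1 and 0.06 in other T cells over the 11 classes outside the wider gates. That of B cells was -0.08, and 0.052 with TMM factors, which shift it by 0.13. In most classes the sign turned under at least 1 other setting. Of 357 member values 7 were higher by more than 1.5-fold and 22 lower, beside 2.20% and 1.85% of 68718 values of all tested genes, and 16 of the lower ones were in cDC1.

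The median of cDC1 lay between -0.61 (TMM factors) and -0.22 (gate minimums doubled) in the other settings, and they were too few for gates on thinned cells. Most of the falls were in cDC1 (58 cells against 50), where 16 of 36 members were lower and 0 higher, beside 5.97% and 8.98% of 5780 genes. Marcksl1 stood at 56.6, 185, 226 and 28.6 CPM (log2 ratio -2.97, interval -3.51 to -2.49), Bcl2a1b at 144, 433, 384 and 108 CPM (-1.82, -2.11 to -1.55) and Tnip3 at 2.18, 46.3, 36.3 and 9.78 CPM (-1.86). The treated wild-type and miR-146a-/- libraries were high and the young wild-type and miR-146a-/- Ccl5-/- libraries low. Bcl2a1a (-1.76) and Map3k14 (-1.33) completed the 5 largest falls. Tnfaip3 had 45.7, 56.5, 54.5 and 24.8 CPM (-1.12, -1.79 to -0.50), and Nfkbia (389 to 271 CPM) and Nfkb1 (163 to 160 CPM) did not pass the fold. Nfkbiz, lower here by a log2 ratio of -0.99, gave 0.043 when cells of more than 1 lineage were kept. In the pooled counts Marcksl1, Bcl2a1b and Map3k14 were highest in mature dendritic cells, and Tnip3, Bcl2a1a, Tnfaip3 and Nfkbiz in other classes. The 4 markers of mature dendritic cells other than Ccl5 summed in cDC1 to 12.3, 374, 352 and 120 CPM. Ccl22 was the most abundant of them, and 3 of the 4 were detected in the young library. That sum was low in the same libraries as Marcksl1. Whether the difference lies in cDC1 themselves or in how many had matured was not tested.

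Cd83 rose in 5 classes. It stood at 31.7, 72.1, 15.7 and 36.3 CPM in conventional CD4 T cells (log2 ratio 1.21, interval 0.70 to 1.73) and went from 15.2 to 32.2 CPM in ILC1-gate cells (1.07), from 12.7 to 22.3 CPM in NK cells (0.80), from 60.9 to 102 CPM in patrolling monocytes (0.74) and from 92.5 to 139 CPM in regulatory T cells (0.59). In conventional CD4 T cells the miR-146a-/- library was the low one and treated wild-type the high one. The sum of the 5 B-cell markers was higher in the same 5 classes, from 474 to 722 CPM in conventional CD4 T cells, 766 to 835 CPM in ILC1-gate cells, 356 to 499 CPM in NK cells, 3847 to 6481 CPM in patrolling monocytes and 1160 to 1712 CPM in regulatory T cells. It was higher also in PD-1- CD8 T cells (124 to 446 CPM), where Cd83 was too low to be compared. Without Cd74 the differences were smaller, from 68.8 to 91.3, 153 to 178, 83.2 to 87.8 and 51.7 to 76.7 CPM in the first 4 classes, and regulatory T cells went down, from 617 to 595 CPM. These sums were mostly Ighm, with 2 to 4 of 4 genes detected. Whether transcripts of other cells add to Cd83 there was not tested. In cDC1 Cd83 fell, from 645 to 363 CPM (-0.83). In regulatory T cells these libraries had 1078 and 1056 CPM of Nfkbia and 326 and 345 CPM of Tnfaip3.

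In the other classes calls were few. Conventional CD4 T cells had 2 higher (Cd83 and Malt1) and 1 lower (Ikbkb) of 32, beside 2.19% and 1.58% of 6521 genes. Regulatory T cells had 1 higher (Cd83) and 0 lower of 33, beside 1.69% and 2.52%. NK cells had 1 higher (Cd83) and 1 lower (Nfkbid, -0.63) of 30, beside 0.508% and 0.461%. No other lymphocyte class but ILC1-gate cells had a call. ILC1-gate cells had 1 higher (Cd83) and 0 lower of 31, beside 1.13% and 0.58%. PD-1+ CD8 T cells had 0 and 0 of 29, beside 1.75% and 1.14%, PD-1- CD8 T cells 0 and 0 of 30, beside 0.901% and 0.209%. Other T cells had 0 and 0 of 30, beside 0.672% and 0.627%, and B cells 0 and 0 of 32, beside 2.34% and 2.28%. Myeloid cells outside cDC1 had a few calls. Patrolling monocytes had 1 higher (Cd83) and 0 lower of 38, beside 1.73% and 0.599%. In cDC2-gate cells 1 was higher (Ptgs2, 0.63) and 4 lower (Cflar, Marcksl1, Nlrp3 and Malt1) of 36, beside 3.04% and 4.88%. There Ptgs2 gave -0.50 with stricter gates, and Nlrp3 (-0.69) gave 0.11 with cells of more than 1 lineage kept. In classical monocytes of the wider gate 2 were higher (Ptgs2 and Cd83) and 0 lower of 39, beside 0.897% and 0.88%, and Cd83 (0.69) gave -0.10 as a mean over cells. In pDC of the wider gate 2 of 28 were higher (Tnfaip3 and Traf2) and 0 lower, beside 1.44% and 2.5%.

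The stress genes differed little in this comparison, with log2 ratios of their sum from -0.14 to 0.29 and lower sums in 2 of the 11 classes. Of the 31 further pathway genes tested in cDC1, 3 were higher (Ripk1, Map3k7 and Tbk1) and 6 lower, led by Tnf, Gadd45b, Ccl4, Relb and Cd40, beside 8.98% and 5.97% of all tested genes. Other T cells had 0 higher and 5 lower (Ccl3, Ier3, Tnf, Tnfrsf4 and Ccl4) of 33, beside 0.672% and 0.627%, and B cells had 0 either way of 27.

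The paralogs Bcl2a1a, Bcl2a1b and Bcl2a1d are nearly alike, with 97.9% to 98.8% of 519 coding bases identical, so reads may have been counted for the wrong one, and their separate levels are less certain than those of other members. Without them the summed ratio in cDC1 of miR-146a-/- Ccl5-/- over miR-146a-/- mice was -0.58, against -0.69 with them. Treated wild-type and young mice differ in age, carcinogen and diet at once, and the sum over a class mixes cells of different states. With 1 library per group, the spread between mice is not known, and differences between libraries in handling or cell mix enter every comparison. Values of classes with few cells, such as cDC1, rest on 50 to 72 cells per library.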

How the data were processed

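Sequencing reads of the 4 libraries had been aligned to mm10 with Cell Ranger 7.0.1, and the deposited values are whole-number UMI counts, neither normalized nor filtered for quality. The limits of the study's methods (600 to 6000 features, mitochondrial share up to 5%) were applied to cells. Cells were put in 16 classes by sums of marker UMIs. Cells with markers of more than 1 lineage, which include doublets, were left out. Cells that fitted more than 1 of these classes were left out of them too. In the order of libraries used above they numbered 216, 352, 499 and 833.

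Member UMIs were summed per class and library and given as CPM of the class's UMIs, with exact 95% Poisson intervals. Ratios used a prior of 0.5 counts and exact conditional (Clopper-Pearson) intervals, in classes with at least 50 cells in both libraries and for genes with at least 20 CPM and 80 UMIs over the pooled libraries. A call means a ratio past 1.5-fold. No test was possible with 1 library per group. The ratio step was tested on simulated counts. The members and lists were chosen with earlier results of these data known. Named are the members of each role with the highest pooled level, up to 5 largest rises and falls past the fold per class and comparison, and always Nfkbia, Tnfaip3 and Nfkb1.

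Alternatives were gates on cells thinned to 2000 UMIs, doubled gate minimums, cells of more than 1 lineage kept, looser limits (10% mitochondrial UMIs, or 200 features), TMM factors, a prior of 5 counts, a filter of 5 CPM and 20 UMIs, a fold of 2, the mean over cells of CPM, and omission of the Bcl2a1 paralogs. Wider gates for classical monocytes and pDC were added after seeing the data. Tools were Python 3.11.15 with numpy 2.4.6, pandas 2.3.3, scipy 1.17.1 and matplotlib 3.10.9, and R 4.3.3 with edgeR 4.0.16 for TMM factors only. Gene positions and 3′ UTRs came from GENCODE M21 and promoters from RefSeq, both on GRCm38.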

Additional observations from a re-analysis of the deposited data

Results flagged for a closer look

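Some members passed 1.5-fold in opposite directions in 2 cell classes of the same comparison. The wider gates were left out of this list. With pDC of the wider gate, Tnfaip3 in miR-146a-/- Ccl5-/- over miR-146a-/- mice also passed the fold in both directions. So did Traf1 in miR-146a-/- over wild-type mice. In classical monocytes of the wider gate Traf1 (-1.39), Traf3 (-0.73) and Ebi3 (-0.63) were also lower past the fold in that comparison. Traf1 (0.78) and Traf3 (0.77) were higher past it in cDC2-gate cells, and Ebi3 was in cDC1 and patrolling monocytes. In each case the difference between the classes was not tested. The pair of classes given is the one with the highest and the lowest log2 ratio of the gene.

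In treated over young wild-type mice, Bcl2a1b had a log2 ratio of 1.59 in cDC1 and -0.60 in NK cells, a difference of 2.19. Bcl2a1b shares most of its sequence with its paralogs, so its counts are less certain than those of other members.

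In miR-146a-/- over wild-type mice, both treated, Marcksl1 had 1.44 in cDC2-gate cells and -1.59 in conventional CD4 T cells, a difference of 3.02. Birc3 had 0.72 in cDC2-gate cells and -0.61 in NK cells, a difference of 1.33.

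In miR-146a-/- Ccl5-/- over miR-146a-/- mice, Cd83 had 1.21 in conventional CD4 T cells and -0.83 in cDC1, a difference of 2.04. Malt1 had 0.61 in conventional CD4 T cells and -0.59 in cDC2-gate cells, a difference of 1.20.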

How the results depend on the processing

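Of 344 medians recomputed under other settings, 317 kept their sign. As limit for a moved median served the order-statistic interval over members, which describes their spread and no error between mice: 338 lay inside it and 6 outside. Under the looser limits (10% mitochondrial UMIs, or 200 features), the prior of 5 counts, the filter of 5 CPM and 20 UMIs and the omission of the Bcl2a1 paralogs, 0 of 35 medians moved in each case. Of 148 recomputed sums, 98 lay outside the counting interval of the reported sum. Of 11034 single values, 10504 held their place, 524 moved and 6 that had passed the fold changed sign. TMM factors moved the median of members by at most 0.13 (B cells). Keeping cells of more than 1 lineage moved a single gene by up to 3.55 on the log2 scale, more than any other setting. No paired analysis was possible because each group holds 1 library. On cells thinned to 2000 UMIs, classes under 50 cells gave no value. The cause of the shifts below was not tested.

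On thinned cells the median was 0.063 for PD-1- CD8 T cells in treated over young wild-type mice and 0.047 for patrolling monocytes in miR-146a-/- Ccl5-/- over miR-146a-/- mice. With cells of more than 1 lineage kept the median was 0.21 for PD-1- CD8 T cells in treated over young wild-type mice, -0.25 for cDC2-gate cells in miR-146a-/- over wild-type mice and 0.060 for cDC2-gate cells in miR-146a-/- Ccl5-/- over miR-146a-/- mice. With TMM factors the median was 0.052 for B cells in miR-146a-/- Ccl5-/- over miR-146a-/- mice. Single values turned as follows. With cells of more than 1 lineage kept, Nfkbiz in cDC1 and Nlrp3 in cDC2-gate cells of miR-146a-/- Ccl5-/- over miR-146a-/- mice gave 0.043 and 0.11. Under the same setting Traf1 and Traf3 in cDC2-gate cells of miR-146a-/- over wild-type mice gave -0.14 and -0.25. In miR-146a-/- Ccl5-/- over miR-146a-/- mice Ptgs2 in cDC2-gate cells gave -0.50 with gate minimums doubled, and Cd83 in wider-gate classical monocytes -0.10 as a mean over cells of CPM.

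Counts depend on the fold asked for, and each is given with the share of all tested genes past the same limit. At a fold of 2, the members higher in treated over young wild-type mice numbered 1 in PD-1+ CD8 T cells (2.11%), 0 in PD-1- CD8 T cells (0.145%), 2 in conventional CD4 T cells (0.797%), 0 in other T cells (0.947%), 1 in NK cells (0.890%), 2 in ILC1-gate cells (0.947%), 0 in B cells (0.803%), 5 in cDC1 (2.35%), 2 in patrolling monocytes (2.89%) and 0 in wider-gate pDC (0.225%). At a fold of 2, the members higher in miR-146a-/- over wild-type mice numbered 0 in cDC1 (1.23%), 2 in cDC2-gate cells (2.03%) and 0 in patrolling monocytes (3.44%). At a fold of 2, the members higher in miR-146a-/- Ccl5-/- over miR-146a-/- mice numbered 1 in conventional CD4 T cells (0.721%), 0 in regulatory T cells (0.423%), 0 in NK cells (0.191%), 0 in cDC2-gate cells (0.515%), 0 in patrolling monocytes (0.599%), 0 in wider-gate classical monocytes (0.121%) and 0 in wider-gate pDC (0.193%). At a fold of 2, the members lower in treated over young wild-type mice numbered 0 in NK cells (0.222%) and 1 in cDC1 (1.94%). At a fold of 2, the members lower in miR-146a-/- over wild-type mice numbered 1 in PD-1- CD8 T cells (0.788%), 3 in conventional CD4 T cells (1.89%), 1 in other T cells (0.963%), 4 in NK cells (1.29%), 2 in ILC1-gate cells (1.45%), 1 in B cells (1.99%), 1 in cDC2-gate cells (1.94%), 5 in patrolling monocytes (4.31%), 14 in wider-gate classical monocytes (2.74%) and 2 in wider-gate pDC (1.11%). At a fold of 2, the members lower in miR-146a-/- Ccl5-/- over miR-146a-/- mice numbered 0 in conventional CD4 T cells (0.353%), 0 in NK cells (0.0635%) and 1 in cDC2-gate cells (0.797%). With TMM factors, the members higher in treated over young wild-type mice numbered 0 in PD-1- CD8 T cells (0.852%), 8 in ILC1-gate cells (3.80%), 1 in B cells (1.87%) and 0 in wider-gate pDC (3.10%). With TMM factors, the members higher in miR-146a-/- over wild-type mice numbered 4 in cDC1 (7.92%). With TMM factors, the members higher in miR-146a-/- Ccl5-/- over miR-146a-/- mice numbered 1 in conventional CD4 T cells (1.90%).

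With gates set on cells thinned to 2000 UMIs, 35 of 46 sums moved, to between 79.9% and 123% of the reported level. PD-1+ CD8 T cells gave 3350.5 CPM (young wild-type), 3474 CPM (treated wild-type), 2823 CPM (miR-146a-/-) and 2829 CPM (miR-146a-/- Ccl5-/-). PD-1- CD8 T cells gave 2929 CPM (young wild-type), 3327 CPM (treated wild-type), 2653 CPM (miR-146a-/-) and 2748 CPM (miR-146a-/- Ccl5-/-). Conventional CD4 T cells gave 3450 CPM (young wild-type), 4539 CPM (treated wild-type), 3618 CPM (miR-146a-/-) and 3855 CPM (miR-146a-/- Ccl5-/-). Regulatory T cells gave 5051 CPM (young wild-type), 5008 CPM (miR-146a-/-) and 5251 CPM (miR-146a-/- Ccl5-/-). Other T cells gave 3322 CPM (young wild-type) and 3998 CPM (treated wild-type). NK cells gave 5596 CPM (treated wild-type), 2946 CPM (miR-146a-/-) and 3287 CPM (miR-146a-/- Ccl5-/-). ILC1-gate cells gave 3732 CPM (treated wild-type). B cells gave 4532 CPM (young wild-type) and 3882 CPM (miR-146a-/- Ccl5-/-). The cDC1 gave 2908 CPM (young wild-type) and 2978 CPM (miR-146a-/- Ccl5-/-). The cDC2-gate cells gave 5684 CPM (miR-146a-/-) and 5013 CPM (miR-146a-/- Ccl5-/-). C1q macrophages gave 4538 CPM (miR-146a-/- Ccl5-/-). Patrolling monocytes gave 5507 CPM (young wild-type), 5282 CPM (miR-146a-/-) and 5552 CPM (miR-146a-/- Ccl5-/-). Classical monocytes gave 3229 CPM (miR-146a-/-). Wider-gate classical monocytes gave 6094 CPM (treated wild-type), 3416 CPM (miR-146a-/-) and 3551 CPM (miR-146a-/- Ccl5-/-).

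With gate minimums doubled, 27 of 51 sums moved, and the whole range was 79.6% to 109%. PD-1+ CD8 T cells reached 3240.1 CPM (young wild-type) and 3382 CPM (treated wild-type). PD-1- CD8 T cells reached 2951 CPM (young wild-type), 2627 CPM (miR-146a-/-) and 2716 CPM (miR-146a-/- Ccl5-/-). Conventional CD4 T cells reached 3339 CPM (young wild-type), 3913 CPM (treated wild-type) and 3964 CPM (miR-146a-/- Ccl5-/-). Regulatory T cells reached 4756 CPM (young wild-type). Other T cells reached 3328 CPM (young wild-type), 4129.8 CPM (treated wild-type) and 3310.3 CPM (miR-146a-/- Ccl5-/-). NK cells reached 3129 CPM (miR-146a-/- Ccl5-/-). ILC1-gate cells reached 3014 CPM (young wild-type). B cells reached 4335 CPM (young wild-type), 4500.2 CPM (treated wild-type) and 3581 CPM (miR-146a-/- Ccl5-/-). The cDC1 reached 3128 CPM (young wild-type), 3679 CPM (treated wild-type) and 3524 CPM (miR-146a-/-). The cDC2-gate cells reached 5672 CPM (miR-146a-/-) and 5181 CPM (miR-146a-/- Ccl5-/-). Patrolling monocytes reached 6488 CPM (young wild-type), 5619 CPM (miR-146a-/-) and 5560.3 CPM (miR-146a-/- Ccl5-/-). Classical monocytes reached 2838 CPM (miR-146a-/-). Wider-gate classical monocytes reached 6638 CPM (treated wild-type).

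With cells of more than 1 lineage kept, 36 of 51 sums moved, and the whole range was 60.7% to 138%. PD-1+ CD8 T cells came to 3197 CPM (young wild-type), 3953 CPM (treated wild-type), 3007 CPM (miR-146a-/-) and 3173 CPM (miR-146a-/- Ccl5-/-). PD-1- CD8 T cells came to 3158 CPM (young wild-type), 3799 CPM (treated wild-type), 2830.3 CPM (miR-146a-/-) and 2948 CPM (miR-146a-/- Ccl5-/-). Conventional CD4 T cells came to 3581 CPM (young wild-type), 4954 CPM (treated wild-type), 3574 CPM (miR-146a-/-) and 3919.9 CPM (miR-146a-/- Ccl5-/-). Regulatory T cells came to 4958 CPM (young wild-type). Other T cells came to 3535 CPM (young wild-type), 4516 CPM (treated wild-type), 3439 CPM (miR-146a-/-) and 3542 CPM (miR-146a-/- Ccl5-/-). NK cells came to 4798 CPM (young wild-type) and 3229.9 CPM (miR-146a-/-). ILC1-gate cells came to 3246 CPM (young wild-type), 4039 CPM (treated wild-type), 2918 CPM (miR-146a-/-) and 3089 CPM (miR-146a-/- Ccl5-/-). B cells came to 4164 CPM (young wild-type). The cDC1 came to 4109 CPM (treated wild-type), 3665 CPM (miR-146a-/-) and 2889.7 CPM (miR-146a-/- Ccl5-/-). The cDC2-gate cells came to 4838 CPM (treated wild-type), 3656 CPM (miR-146a-/-) and 3916 CPM (miR-146a-/- Ccl5-/-). C1q macrophages came to 3975 CPM (miR-146a-/- Ccl5-/-). Patrolling monocytes came to 5258 CPM (young wild-type), 5715 CPM (treated wild-type), 4849 CPM (miR-146a-/-) and 4895 CPM (miR-146a-/- Ccl5-/-). Classical monocytes came to 3616 CPM (miR-146a-/-).

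Depth limits single genes more than sums: members under 20 CPM or 80 UMIs over the pooled libraries of a class were not compared, which left out Il6 and Il1a everywhere.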

Other observations

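Classes with fewer than 50 cells in most libraries entered no comparison. Mature dendritic cells (6, 31, 9 and 29 cells in the young wild-type, treated wild-type, miR-146a-/- and miR-146a-/- Ccl5-/- libraries) had summed member levels of 16871, 12953, 12977 and 11784 CPM. Neutrophils (19, 21, 34 and 30 cells) had 26411, 13385, 4167 and 6135 CPM, and Il1b alone made up 49.3%, 42.4%, 26% and 30.9% of the member UMIs. C1q macrophages (15, 31, 22 and 85 cells) had 4724, 4816, 5921 and 4921 CPM. Cells of more than 1 lineage had 4140.5, 4886, 3812 and 3907 CPM.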
